A study of Mus musculus with 4 samples.

Results

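The genes described here are the mouse genes whose symbols start with Nduf, which name nuclear subunits and assembly factors of respiratory complex I. They were chosen by symbol alone, among probe sets that the array annotation gives to exactly 1 gene, and each gene is represented by its probe set with the highest mean log2(signal + 16) over the arrays. There were 44 such genes among 18193 named genes, and 43 of them passed the filter on dim probe sets. RNA was measured in 4 cultures of C2C12 cells, an established mouse myoblast line, with 1 Affymetrix array per culture. In 2 cultures the cells were stably transduced with pLKO.1, a lentiviral vector, carrying a short hairpin RNA (shRNA) against Sfmbt1, called the knockdown below. In the other 2, the vector control, pLKO.1 carried a control hairpin, which one label field calls scrambled and another names shLuc. All cultures were selected and kept in puromycin in growth medium with serum. The series text calls the cultures independently grown biological replicates, and the labels do not say whether each was transduced on its own, so the spread within a group may cover culture and array variation only.

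Complex I, NADH:ubiquinone oxidoreductase, is the entry point of electrons from NADH into the mitochondrial respiratory chain, and it pumps protons across the inner membrane. Its matrix arm holds the N module, which oxidises NADH through a flavin and iron-sulfur clusters, and the Q module, which passes the electrons to ubiquinone. Its membrane arm holds the proton pumps, encoded by mitochondrial DNA, surrounded by small nuclear-encoded accessory subunits, and dedicated assembly factors join the modules. Sfmbt1 encodes an MBT-domain protein of chromatin, and C2C12 myoblasts shift towards oxidative metabolism when they differentiate into myotubes. The comparison asks which complex I genes differ when Sfmbt1 is knocked down.

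The promoters of the 3 complex I genes with the smallest p in that comparison are shown first, because these genes lie nearest to the threshold. They are Ndufa3 (GRCm38.p6, chr7:3617223-3617422, plus strand), Ndufaf1 (chr2:119662785-119662984, minus strand) and Ndufb7 (chr8:83566608-83566807, plus strand), each from 150 bases before to 50 bases after the RefSeq start, written 5′ to 3′. Capitals mark the single motif found in each.
Ndufa3: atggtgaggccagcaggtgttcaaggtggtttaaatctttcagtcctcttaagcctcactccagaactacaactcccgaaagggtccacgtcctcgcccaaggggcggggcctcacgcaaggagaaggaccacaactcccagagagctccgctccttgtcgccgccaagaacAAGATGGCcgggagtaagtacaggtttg
Ndufaf1: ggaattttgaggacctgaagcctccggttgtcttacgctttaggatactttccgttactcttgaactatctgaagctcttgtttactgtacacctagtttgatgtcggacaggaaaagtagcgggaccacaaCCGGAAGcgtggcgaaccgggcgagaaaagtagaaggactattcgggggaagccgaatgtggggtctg
Ndufb7: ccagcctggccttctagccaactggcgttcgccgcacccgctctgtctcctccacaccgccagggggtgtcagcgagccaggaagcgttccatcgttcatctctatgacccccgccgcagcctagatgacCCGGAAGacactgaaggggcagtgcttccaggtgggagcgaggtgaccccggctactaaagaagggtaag

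Motifs were searched on both strands in 300-base windows, 250 before and 50 after each start, which RefSeq gave for 39 of the 44 genes. A gene was counted if any of its windows held the motif, whereas the shares below count single windows. The YY1 motif AAGATGGC, shown in Ndufa3, was found in 7 of the 39 genes, against 2.75% of all 32851 windows in the table. The other genes with it were Ndufa9, Ndufaf8, Ndufb8, Ndufc1, Ndufs4 and Ndufs7, whose log2 differences between knockdown and control lay between -0.13 and 0.19. The ETS motif CCGGAAG, which the transcription factor GABP binds and which is shown in Ndufaf1 and Ndufb7, was found in 6 genes, against 8.86% of all windows. The palindromic NRF1 motif was found in Ndufaf4 and Ndufaf5 (0.971% of all windows), the E-box CAGCTG in 4 genes (16.3%) and the E2F motif TTTCCCGC in 0 (1.07%). The YY1 and ETS motifs can overlap by AAG, and a match describes letters only.

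The targeted gene was lower on both knockdown arrays in all 5 of its probe sets, of which 1443853 lay within the background range on every array and was not tested. In probe set 1422893 Sfmbt1 had a signal of 89.2 and 139 in the knockdown, against 230.3 and 291.5 in the control, and in probe set 1422894 it had 74.6 and 16 in the knockdown, the lower within the background range, against 241.7 and 277.9 in the control. Of these, 1422894 passed limma's test over every probe set (adjusted p = 0.0219) and 1422893 did not (0.0594), nor did the brightest, 1429749, with 166.2 and 252.3 in the knockdown, against 256.3 and 361.6 in the control (0.333). The median signal of an array lay between 92.8 and 102.7, and knockdown replicate 1 had the highest background limit (69.3, against 42.9 to 53.2 on the others). All 9 myoblast markers, among them Myod1 and Des, lay above background on every array. Their summed signal was 21492 and 22342 in the knockdown, against 21750.5 and 24269 in the control. Of the 9, limma called 0, with 0 higher and 2 lower at an unadjusted p under 0.05 (7.89% and 7.14% of all tested genes). Both knockdown arrays lay below both control arrays in 6 (21.5% of all tested genes) and above them in 2 (23%). Their median difference was -0.23 log2 units, from -0.51 for Met to 0.21 for Des. Of 16 tested markers of differentiating muscle 13 rose, where 1.44% of all tested genes did. The summed signal of all 17 was 13168 and 13997 in the knockdown, against 3799 and 3672 in the control. Of 6 tested fibroblast markers 2 rose, Col1a1 and Col1a2, and 0 fell (1.44% and 1.61% of all tested genes). The median difference over all 9 was 0.11 log2 units, from -0.74 for Pi16 to 1.96 for Col1a1, with 2 of the 9 below 0. Their summed signal was 28090.5 and 29648 in the knockdown, against 23012 and 21333 in the control. Endothelial and leukocyte markers summed to at most 482 and 784 in the knockdown, against 531 and 840 in the control, and limma called 0 of the 2 and 3 tested, with 0 at an unadjusted p under 0.05. The part of these cell states in the values below was not tested, and fewer cells of a type and less RNA per cell cannot be told apart in bulk RNA.

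No complex I gene was called higher or lower in the knockdown. Of 43 tested, 0 passed limma's test at an adjusted p under 0.05, against 3.05% of all 12866 tested genes, 1.44% higher and 1.61% lower. At an unadjusted p under 0.05, 7 were higher, where the background was 7.89% of all genes, and 0 were lower, where it was 7.14% (15% in either direction). The differences leaned to one side: 35 of the 44 were above 0, against 52.2% of all tested genes, and the median was 0.08 log2 units over the 44 genes, against 0.0054 over all 18193 genes. With quantile normalization 32 were above 0 and with median centring 38, but 27 without control replicate 1 and 16 without knockdown replicate 2. In each of these last 2 settings the median over all tested genes was also lower, at -0.04. The count called depended on the setting: it was 5 of 43 with median centring (4.33% of all genes called in either direction, 2.63% higher), 3 of 41 with only the upper 40% of genes tested (6.3% and 2.96%) and 2 of 43 with quantile normalization (4.16% and 2%), all higher in the knockdown. The counts of 3 and 2 are near the shares of all genes called in either direction, and above the shares called higher. Both knockdown arrays lay above both control arrays in 9 of the 43 (23% of all tested genes) and below them in 1, the assembly factor gene Ndufaf7 (21.5%). The sizes were small: 41 of 43 differed by less than 1.5-fold, the exceptions being Ndufaf6 and Ndufaf1. The 95% interval of the difference lay inside 2-fold in either direction for 41 genes, and inside 1.5-fold for 34. The median standard error was 0.13 log2 units, against 0.19 over all tested genes. These differences are in log2(signal + 16), knockdown minus control, a scale that understates changes of dim genes.

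**Figure D1:**
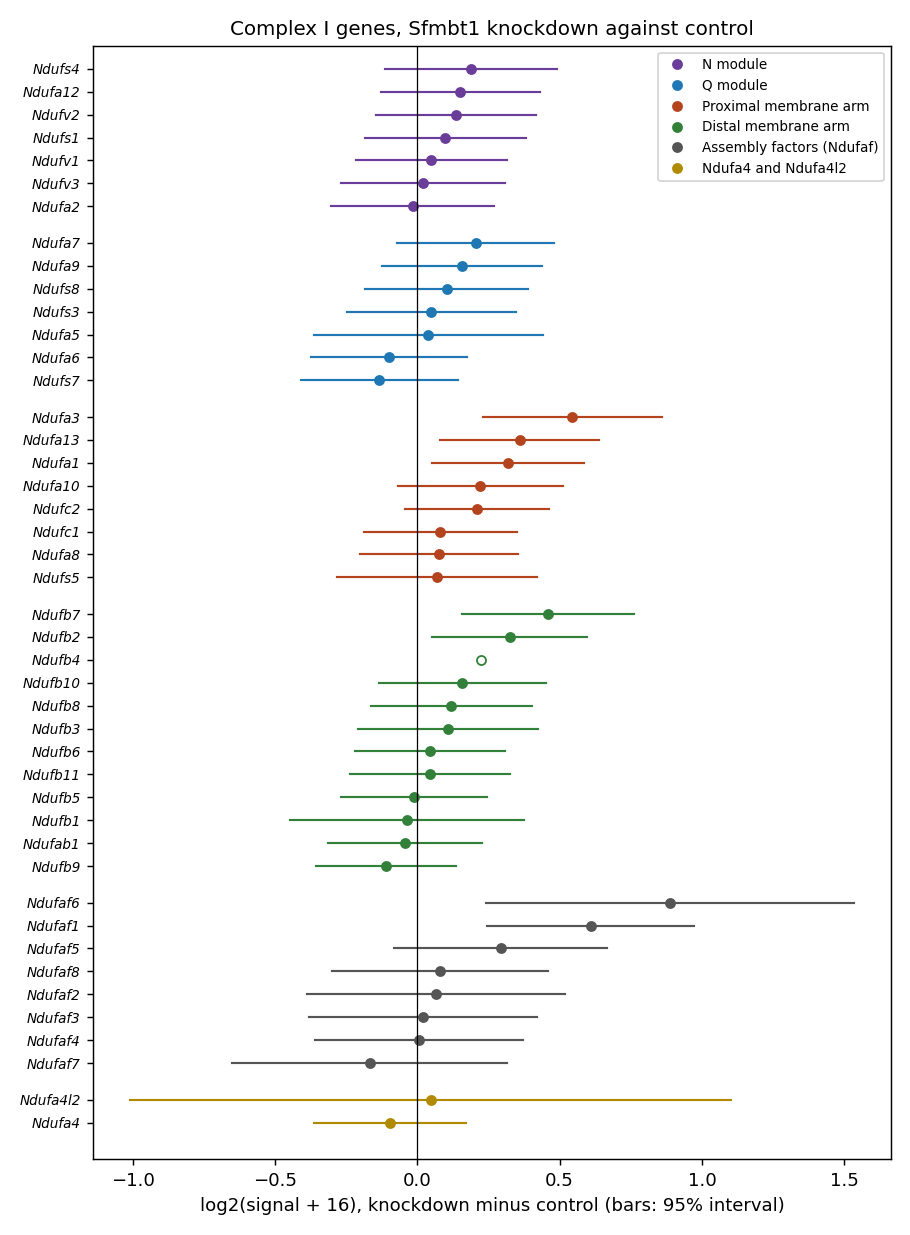
Difference in log2(signal + 16), knockdown minus control, for each of the 44 complex I genes, grouped by the role of the protein; points are differences of group means (n = 2 arrays each), bars are 95% intervals from limma, and the open point is Ndufb4, which was too dim to be tested. Intervals of 36 of the 43 tested genes cross 0, and all 8 genes of the proximal membrane arm lie to the right of it.

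Genes of the N module, where NADH is oxidised, differed by -0.02 to 0.19 log2 units, and the groups were separate in 0 of the 7. Among all tested genes both knockdown arrays lay above both control arrays in 23% and below them in 21.5%. Ndufv1, the subunit that binds NADH and the flavin, had signals of 2374 and 2611 in the knockdown, against 2375 and 2439 in the control (log2 0.05, 95% interval -0.22 to 0.31). Ndufv2, which carries an iron-sulfur cluster, had 4436.5 and 5470.0 in the knockdown, against 4159 and 4831 in the control. Its difference was 0.14 (-0.14 to 0.42), and the groups overlapped. Ndufs1, the largest core subunit with several iron-sulfur clusters, had 1584 and 1781 in the knockdown, against 1546 and 1590.1 in the control (0.10, -0.18 to 0.38), and here too 1 knockdown array lay between the control arrays. Ndufs4, an accessory subunit whose loss causes a Leigh-like encephalopathy in mice, had the highest difference of the module, 0.19 (-0.11 to 0.49), and Ndufa2 the lowest.

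In the Q module the 7 differences ran from -0.13 for Ndufs7 to 0.21 for Ndufa7. The groups were separate in 0 of them (23% of all tested genes on the higher side and 21.5% on the lower). Ndufs7, which holds the iron-sulfur cluster next to the ubiquinone site, had signals of 2041 and 2392 in the knockdown, against 2377 and 2477 in the control. The interval of its difference was -0.41 to 0.14, and a second probe set gave -0.03. Ndufs3, the core subunit from which the module is built up, had 2208 and 2826 in the knockdown, against 2299 and 2535 in the control (0.05, -0.25 to 0.35), so that the knockdown arrays lay on both sides of the control arrays. Ndufs8, a ferredoxin-like subunit, had 4021 and 4824 in the knockdown, against 4535 and 3705 in the control (0.10, -0.18 to 0.39). Its sign was not stable between probe sets, since its 6 tested probe sets ranged from -0.26 to 0.10. Ndufa5, an accessory subunit of this arm, had the widest spread, with 1106 and 1859 in the knockdown, against 1312 and 1485.5 in the control. Ndufs6, Ndufa11 and the mitochondrially encoded subunits were not analysed here.

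All 8 genes of the proximal membrane arm had a positive difference, with a median of 0.22 log2 units, and 3 of them had an unadjusted p under 0.05 on the higher side (7.89% of all tested genes). Ndufa3, a small single-pass membrane subunit, had signals of 1855 and 2361 in the knockdown, against 1322 and 1545 in the control. Both knockdown arrays lay above both control arrays. The difference was 0.55 (SE 0.15, limma adjusted p = 0.0598), the smallest adjusted p of any complex I gene. It passed with only the upper 40% of genes tested (0.0134), median centring (0.0250), quantile normalization (0.0248) and a replicate block (0.0167). With no variance trend the adjusted p was 0.398. Ndufa13, also known as GRIM-19, a subunit first described as a cell death regulator, had 3030 and 3725 in the knockdown, against 2521 and 2711 in the control (0.36, SE 0.13, adjusted p = 0.191). Ndufa1, an X-linked subunit needed for assembly of the membrane arm, had 5679 and 6997 in the knockdown, against 4956.5 and 5148 in the control (0.32, SE 0.13, adjusted p = 0.228). Neither pair of groups overlapped, and in both genes knockdown replicate 2 was the highest array. Ndufc2 had 4743 and 5367 in the knockdown, against 4306 and 4422 in the control (0.21, adjusted p = 0.449), also without overlap. The other 4, Ndufa8, Ndufa10, Ndufc1 and Ndufs5, had differences of 0.07 to 0.22 and overlapping groups. Both knockdown arrays thus lay above both control arrays in 4 of the 8, against 23% of all tested genes.

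Genes of the distal membrane arm differed by -0.11 (Ndufb9) to 0.46 (Ndufb7). Ndufb7, a subunit on the intermembrane space side with paired cysteine motifs, had signals of 6228 and 8702 in the knockdown, against 5161 and 5548 in the control. The groups were separate, knockdown replicate 2 being the farthest out, and the difference did not pass (0.46, SE 0.14, limma adjusted p = 0.108). It passed with only the upper 40% of genes tested (0.0212), median centring (0.0495) and a replicate block (0.0346). With no variance trend the adjusted p was 0.479. Ndufb2 had 2754 and 3176 in the knockdown, against 2255 and 2465 in the control (0.33, SE 0.13, adjusted p = 0.2304), again without overlap. In the other 10 genes the groups overlapped, so 2 of the 11 tested genes were separate, both higher (23% of all tested genes). Ndufab1, the mitochondrial acyl carrier protein, which also serves fatty acid and lipoate synthesis, had 2158 and 2296 in the knockdown, against 2429 and 2167 in the control, a difference of -0.04 (-0.31 to 0.23). Ndufb4 was represented by a dim probe set, with 42.9 and 90.3 in the knockdown, against 82.2 and 30.8 in the control. It was within the background range on 1 array of each group and was not tested.

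The assembly factor genes held the 2 differences above 1.5-fold. In the roles known from human cells, Ndufaf6 is needed for an early step of assembly. It had signals of 159.9 and 204.9 in the knockdown, against 96.6 and 84.8 in the control. All 4 arrays lay above background and the groups were separate, but the difference carried a wide error (0.89, SE 0.31, adjusted p = 0.158). Ndufaf1, which acts with Ecsit and Acad9 in a complex that builds the membrane arm, had 530.3 and 599 in the knockdown, against 373.9 and 354.4 in the control. Here the groups were further apart than the arrays within each, and the limma adjusted p was 0.0711 (0.61, SE 0.17). Ndufaf1 passed with only the upper 40% of genes tested (0.0242), median centring (0.0365) and quantile normalization (0.0414), but had 0.301 with no variance trend. Its partners stood at 0.11 (Ecsit) and -0.05 (Acad9) log2 units. Ndufaf5, an enzyme that hydroxylates Ndufs7, had 435.8 and 461.6 in the knockdown, against 344.7 and 382.2 in the control, without overlap (0.29, adjusted p = 0.476). Ndufaf7, a methyltransferase of the mitochondrial matrix, had 186.5 and 213.1 in the knockdown, against 223.8 and 228.1 in the control, the lowest difference of all 44 genes (-0.17, adjusted p = 0.803). The other 4, Ndufaf2, Ndufaf3, Ndufaf4 and Ndufaf8, differed by 0.01 to 0.08. Of the 8, groups were separate in 3 on the higher side and 1 on the lower (23% and 21.5% of all tested genes).

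**Figure D2:**
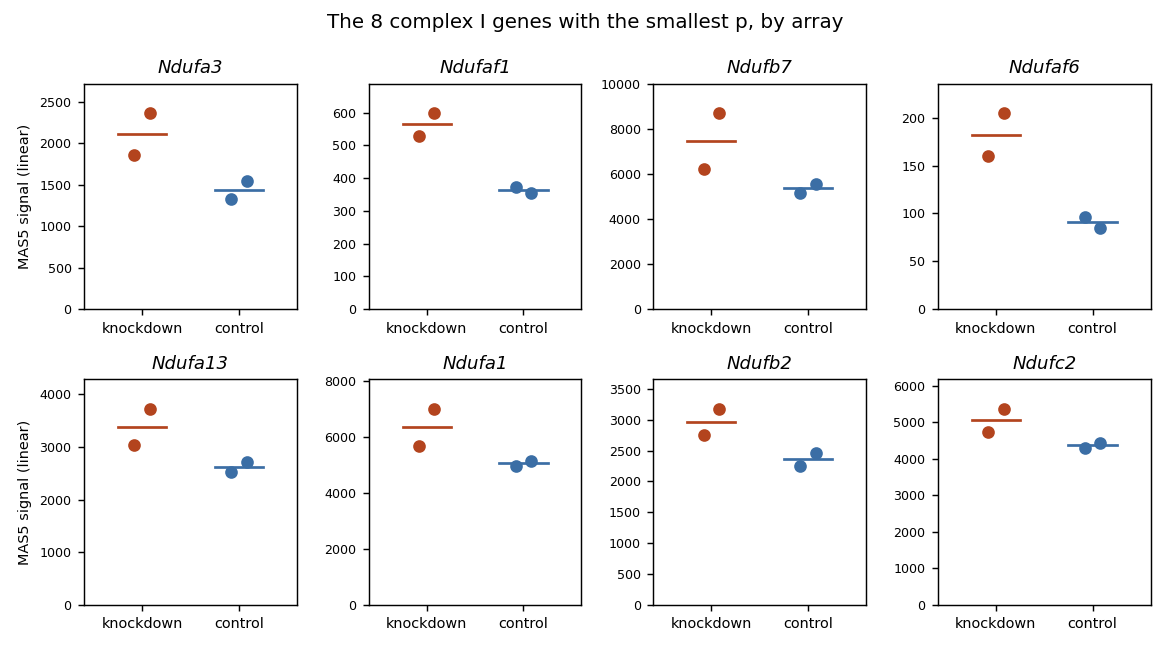
Deposited MAS5 signal on a linear axis from 0 for the 8 complex I genes with the smallest p, with 1 point per array and a line at the group mean (n = 2 each), knockdown left and control right. In each gene both knockdown arrays lie above both control arrays, as in 23% of all tested genes, and choosing genes by p favours such separation. Ndufa3, for example, has 1855 and 2361 in the knockdown against 1322 and 1545 in the control. No gene passed the adjusted threshold in the main fit.

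A pair of genes carries the Nduf name without belonging to the enzyme. Ndufa4, now placed in cytochrome c oxidase (complex IV), had signals of 8439 and 10331 in the knockdown, against 9320.3 and 10696.5 in the control (-0.10, -0.36 to 0.17). Its paralogue Ndufa4l2, a hypoxia-induced gene, had 103.6 and 45.5 in the knockdown, against 47.2, within the background range, and 93.1 in the control. That is a difference of 0.05 with an interval of -1.01 to 1.104, which covers changes of up to about 2-fold in either direction. Without both genes the median over the other 42 was 0.09.

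The lean to positive differences rested on knockdown replicate 2. It was above knockdown replicate 1 in 43 of the 44 genes, the exception being Ndufa4l2, where 69.5% of all tested genes were. Control replicate 2 was above control replicate 1 in 37 of the 44, where 67.2% of all tested genes were. The median step between the replicates was 0.28 log2 units in the knockdown and 0.13 in the control for complex I genes, against 0.13 and 0.10 for all tested genes. Knockdown replicate 2 exceeded control replicate 2 in 37 genes, with a median of 0.18, while knockdown replicate 1 exceeded control replicate 1 in 24, with a median of 0.03. Without knockdown replicate 1 the median difference over the 44 genes was 0.26, against 0.08 over all tested genes, and 5 genes were called higher, Ndufa1, Ndufa13, Ndufa3, Ndufaf1 and Ndufb7 (3.16% of all tested genes were called higher, 5.22% in either direction). Without knockdown replicate 2 the median was -0.035, against -0.04 over all tested genes, and 0 were called. Without control replicate 2 it was 0.15, against 0.05 over all tested genes, and Ndufa3 had a difference of 0.66. Without control replicate 1 it was 0.02, against -0.04 over all tested genes. Replicate numbers have no order, so these are differences between single arrays.

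**Figure D3:**
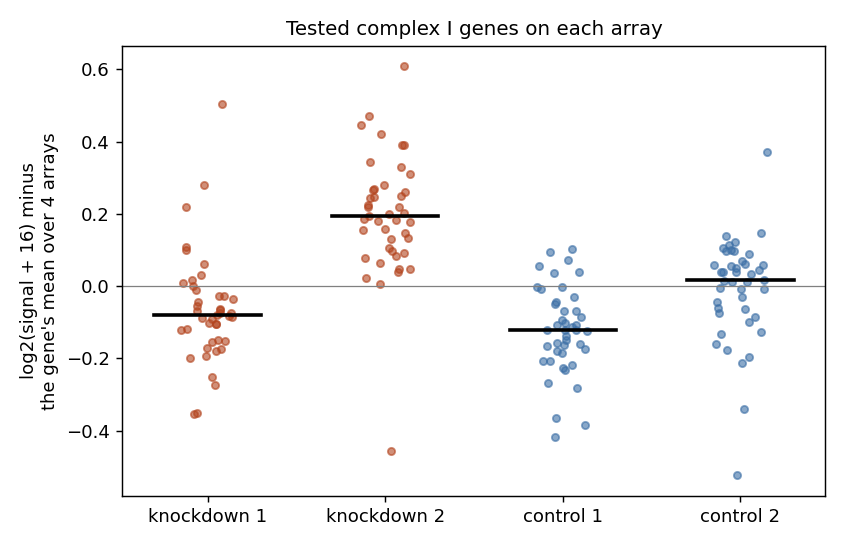
For each of the 43 tested complex I genes, log2(signal + 16) on each array minus the gene's mean over the 4 arrays; points are genes, black lines are medians, knockdown arrays are left and control arrays right. Knockdown replicate 2 sits above the other arrays, while knockdown replicate 1 overlaps the control arrays, and the single low point on knockdown replicate 2 is Ndufa4l2.

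The other probe sets of the same genes were not called either, and 8 of 38 tested ones had the opposite sign to the representative. The 44 genes had 88 probe sets, of which 81 passed the filter, and 0 of these were called when every probe set was tested (2.39% of all 22893 probe sets were), with a lowest adjusted p of 0.0876. At an unadjusted p under 0.05, 10 were higher (6.91% of all) and 0 were lower (8.56%). Of 22 genes with several tested probe sets, 17 had the same sign in each of them. Ndufa3 had 1457.5 and 1683.5 in the knockdown, against 1117 and 1101 in the control, in its second probe set (0.49), and a difference of 0.15 in the other, dim one. Ndufb7 had 3764 and 4466 in the knockdown, against 3154 and 3520 in the control, in its second (0.30). All 5 probe sets of Ndufa7 lay between 0.21 and 0.29. Ndufaf4 was the least uniform, at 0.01 and 0.58, followed by Ndufb2, whose probe sets ran from -0.12 to 0.33.

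**Figure D4:**
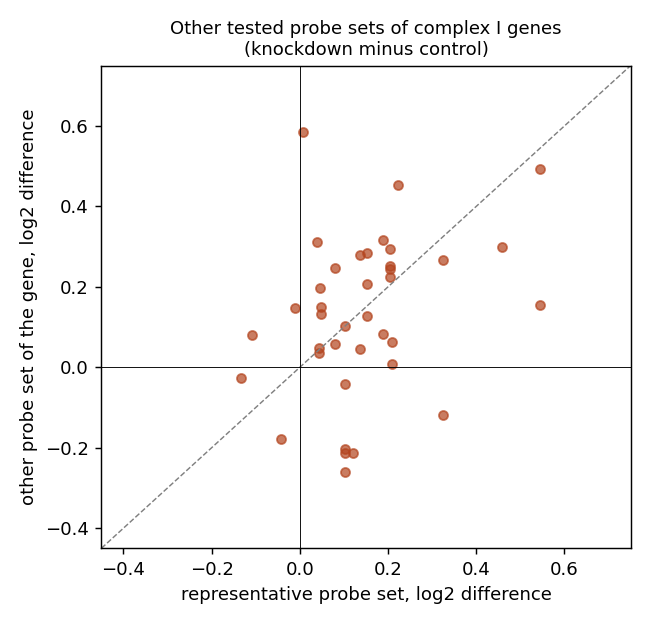
Log2 difference, knockdown minus control, of the probe set that represents a complex I gene (x axis) against that of each other tested probe set of the gene (y axis), with 1 point for each of 38 probe sets and a dashed line of equality. Of these, 30 have the sign of the representative, and 4 of the 5 other probe sets of Ndufs8, at 0.10 on the x axis, lie below 0.

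Around the enzyme, a gene of the assembly pathway fell. Of 14 tested assembly factors without the Nduf name 1 fell and 0 rose (1.61% and 1.44% of all tested genes), with a median of 0.04. It was Aifm1, which encodes the mitochondrial flavoprotein AIF, a partner of the import protein Chchd4 that is needed for complex I biogenesis. Aifm1 had signals of 680.8 and 738.4 in the knockdown, against 1254.5 and 1563 in the control. The groups were far apart, and the gene fell by 0.97 on the log2 scale (SE 0.15, limma adjusted p = 0.0022, 1.2e-06 to 0.231 over the alternatives). It did not pass with no filter (0.0547) or no variance trend (0.231). Chchd4 itself had a difference of 0.06 (adjusted p = 0.909). Of 16 enzymes that make or use NADH in the matrix 0 were called (3.05% of all tested genes were), with a median of 0.05. The nearest were Hadh, a fatty acid oxidation dehydrogenase, at 0.43 (adjusted p = 0.0700), and the malate dehydrogenase Mdh2 at 0.26 (0.289). Hadh had 4177 and 4544 in the knockdown, against 3105 and 3360.0 in the control, and its difference was 0.49 without knockdown replicate 1. It passed with the upper 40% filter (limma adjusted p = 0.0329), median centring (0.0138), quantile normalization (0.0205) and a replicate block (0.0170). Over the alternatives the adjusted p of Hadh ran from 0.0138 to 0.689. Its other probe sets gave 0.14 and 0.47.

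Of 17 tested regulators of respiratory gene transcription 0 were called, where 3.05% of all tested genes were. Gabpa, the DNA-binding subunit of GABP, had signals of 614.4 and 693.2 in the knockdown, against 867.8 and 947.2 in the control, without overlap (-0.46, SE 0.15, adjusted p = 0.134). Pprc1, a coactivator of the PGC-1 family, stood at 0.41 (adjusted p = 0.267). Nrf1 and Yy1, looked up because their motifs were searched, differed by 0.10 (adjusted p = 0.856) and 0.06 (0.898). At an unadjusted p under 0.05, 1 regulator was higher (7.89% of all tested genes) and 2 were lower (7.14%).

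In the other oxidative phosphorylation complexes 39 of 55 differences were above 0, and in the mitochondrial ribosome 52 of 76. Of 52 tested genes of complexes II to V 1 rose and 2 fell (1.44% and 1.61% of all tested genes). The median over the 52 was 0.11, against 0.08 for complex I. The ATP synthase subunit gene Atp5k rose by 0.53 (adjusted p = 0.0414), and its remaining probe sets gave 0.50 and 0.54. The copper chaperone gene Cox17 fell by 0.63 (0.0218), and Sdhaf2, which inserts the flavin of complex II, fell by 0.58 (0.0361). Of 76 mitochondrial ribosomal protein genes 0 rose and 2 fell, where 1.61% of all tested genes fell. They were Mrpl28, by 0.79 (limma adjusted p = 0.0059), and Mrpl10, by 0.55 (0.0409), and the median over the 76 was 0.04. The other probe sets of Mrpl28 had the opposite sign, at 0.11 and 0.15, with a similar mean log2 signal (10.69 and 10.58, against 10.72). When every probe set was tested, limma still called Cox17 (adjusted p = 0.0435) and the representative of Mrpl28 (0.0176). Atp5k (0.0755 at the lowest), Sdhaf2 (0.0583 at the lowest) and Mrpl10 (0.0614) did not pass there. Of these 5 calls, each but that of Mrpl28 was lost when certain single arrays were left out, with the direction kept. Atp5k missed the threshold with control replicate 1 left out (0.44, adjusted p = 0.218) or with knockdown replicate 2 left out (0.35, 0.202). Cox17 did not pass without control replicate 2 (-0.61, 0.0556) or knockdown replicate 1 (-0.44, 0.0776), nor Sdhaf2 without the same arrays (-0.48, 0.224, and -0.45, 0.0878). Mrpl10 was lost when control replicate 1 (-0.61, 0.0782), control replicate 2 (-0.49, 0.217) or knockdown replicate 1 (-0.44, 0.105) was left out. Over all alternatives the highest adjusted p was 0.404 for Atp5k, 0.335 for Cox17, 0.345 for Sdhaf2, 0.338 for Mrpl10 and 0.279 for Mrpl28. Knockdown replicate 2 was above knockdown replicate 1 in 49 of the 52 and in 73 of the 76, as it was in complex I genes. These sets were not tested against each other.

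**Figure D5:**
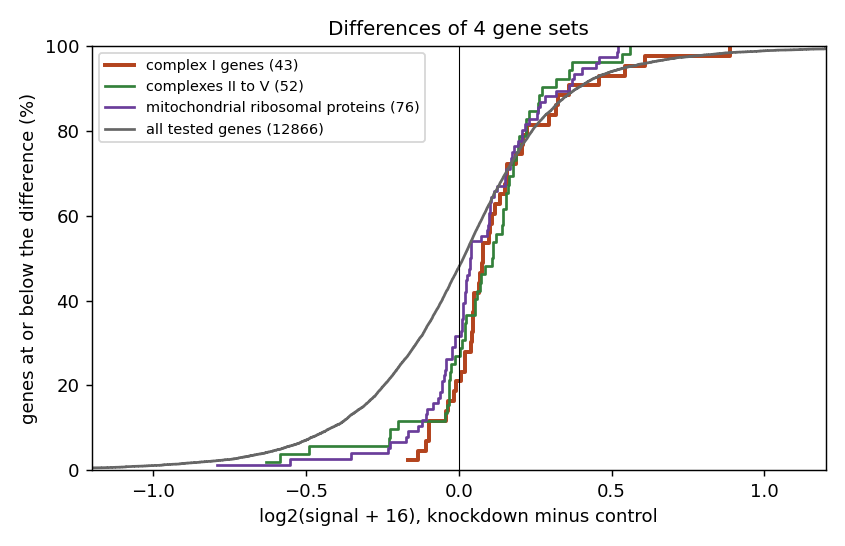
Cumulative share of genes (y axis, percent) at or below each log2 difference, knockdown minus control (x axis), for 43 complex I genes, 52 genes of complexes II to V, 76 mitochondrial ribosomal protein genes and all 12866 tested genes; the x axis ends at 1.2 in both directions. Left of 0 the curves of the 3 mitochondrial sets run below that of all genes, and the complex I curve begins at -0.17.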

How the data were processed

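The authors deposited 1 linear intensity per probe set and array, and the submitters' processing notes name MAS5 and GCOS without a version. Any scaling between arrays was not given in those sources. Of 45101 probe sets, 34945 had 1 gene in the array annotation, 932 had several, 9160 had none listed and 64 were controls. Gene identifiers were matched to RefSeq's GRCm38.p6 table (34741 matched), which gave names only; the promoter sequences are RefSeq's for the same build. Of the probe sets of Nduf genes, 10 were also assigned to another gene and left out.

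Signals were used as deposited, as log2(signal + 16). Genes whose representative lay in the upper 60% of mean log2 signal over the 4 arrays (a signal of 57.3) were tested, knockdown minus control, in limma 3.58.1 under R 4.3.3 (lmFit, then eBayes allowing a variance trend), two-sided, with Benjamini-Hochberg adjustment over 12866 genes and a threshold of 0.05. The 2 residual degrees of freedom were joined by 13.8 from the prior. An exact permutation test of 2 against 2 arrays cannot give a p under 0.333. Each array's background limit was taken at the 95th percentile over 27 probe sets for bacterial control transcripts. The number of arrays limits the precision. The fit was tested on simulated data. Alternatives were the pseudocount, filter, scaling, variance trend, a replicate block, no shared probe sets and leaving out each array.

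The members and lists were chosen with earlier results of these data known. Genes named with values are the 8 with the smallest p, the extremes, the core subunits and dim members, and of other lists the called genes or the 2 with the smallest p. Others, such as Nrf1, Yy1, Ecsit, Acad9 and Chchd4, were named after values were seen.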

Additional observations from a re-analysis of the deposited data

How the results depend on the processing

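Of complex I genes 0 were called with a pseudocount of 1 or 64, no filter, no variance trend or no shared probe sets. The count was 3 with the upper 40% filter, 5 with median centring and 2 with quantile normalization (6.3%, 4.33% and 4.16% of all genes called), all higher in the knockdown, and 0 to 5 when 1 array was left out. Probe sets called numbered 3, 3 and 2 under the same 3 settings and 0 to 10 with 1 array left out, where the 1 called without knockdown replicate 2 was lower. The replicate numbers were not shown to pair the arrays: with 2 pairs, the within-group steps correlated at r = 0.01 across genes. The replicate block gave 2 complex I genes (Ndufa3 and Ndufb7), 3 probe sets, 2 NADH enzymes and 4 mitochondrial ribosomal genes. Under that block 4.24% of all tested genes were called, 2.15% higher. The median over complex I genes was -0.035 to 0.26 with 1 array left out, reversed without knockdown replicate 2, and 0.07 to 0.12 under the other alternatives. With 1 array left out Ndufs3 ranged from -0.13 to 0.23, Ndufs8 from -0.042 to 0.25, Ndufv1 from -0.020 to 0.12 and Ndufv2 from -0.015 to 0.29. Each reversed without knockdown replicate 2, Ndufs3 also without control replicate 1, and Ndufs8 also without control replicate 2 and without shared probe sets (-0.041). With no filter or no variance trend 0 genes of complexes II to V, 0 ribosomal genes and 0 other assembly factors were called, and Aifm1 had an adjusted p of 0.0547 and 0.231. Complexes II to V gave 1 without shared probe sets and 1 to 2 with 1 array left out. The NADH enzymes gave 1, 2 and 1 with the upper 40% filter, median centring and quantile normalization, and 0 to 1 with 1 array left out. The ribosomal genes gave 4 with median centring and 1 to 8 with 1 array left out, and the regulators 0 to 1. Over all genes the calls numbered 392, 55 with no filter, 0 with no variance trend (1933 with the trend at an unadjusted p under 0.05), 607 with the upper 40% filter and 311 to 671 with 1 array left out, and higher calls were 185 of 392, but 339 of 557 with median centring. The causes were not tested.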
